A study of Mus musculus with 7 samples.

Results

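CD8 T cells from a model of deletional tolerance were compared with CD8 T cells from a model of priming, at the same time after transfer and after the same minimum number of divisions. The comparison rests on 4 of the 7 microarrays of the study: 2 arrays of cells from RIP-OVAhi hosts (tolerance) and 2 of cells from OCS/LPS hosts (priming). It covers every gene whose probe set carries 1 gene symbol, 18194 genes in all, of which the 8203 that reached a log2 level of 5 on at least 2 arrays were tested. The 2 arrays of naive cells and the single Rag array give reference levels.

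The transferred cells were of the OT-I line, whose transgenic T cell receptor sees a peptide of chicken ovalbumin, taken as CD44lo cells from Ly5.1 OT-I donors, labelled with the division dye CFSE and injected intravenously into C57BL/6 hosts. RIP-OVAhi mice make ovalbumin under the rat insulin promoter, which is active in the beta cells of the pancreas, and served as the model of deletional tolerance. OCS/LPS mice received splenocytes coated with ovalbumin and bacterial lipopolysaccharide, and served as the model of immunity. CD8+ Ly5.1+ cells with at least 2 divisions by CFSE were sorted after 60 h in both groups. RIP-OVAhi cells were pooled from 20 mice per array and came from sacral and pancreatic lymph nodes. OCS/LPS cells were pooled from 10 mice per array and came from spleen, so tissue and treatment cannot be told apart. Naive reference cells were undivided cells from spleens of antigen-free B6 mice at 60 h (10 mice per array). Rag cells had divided in Rag-/- hosts and were sorted from spleen after 5 days (10 mice). No label states that the pools within a group stem from independent experiments. The p-values therefore reflect only how far these arrays spread, part of which may be technical.

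A naive CD8 T cell that meets its antigen on a dendritic cell divides in either setting. Where the dendritic cell has been alerted by microbial products, the progeny become cytotoxic effector cells that carry granzymes, respond to inflammatory cytokines and change their homing receptors. Where self antigen is shown without such a signal, the cells divide briefly and then die or stop responding, and the death of CD8 cells in such models depends on Bim, the product of Bcl2l11. Receptor signalling without full costimulation is known to favour NFAT, and its targets include the Egr and Nr4a transcription factors and several regulators of unresponsiveness.

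The median absolute log2 difference between replicates was 0.12 within either group, and 28 genes (RIP-OVAhi) and 31 genes (OCS/LPS) lay more than 2-fold apart. The naive replicates lay further apart, with a median of 0.27 and 347 genes more than 2-fold apart. Because the fit uses all arrays, this naive spread enters the SE and adjusted p of the comparison. In the naive, RIP-OVAhi and OCS/LPS groups alike, array 1 lacked the X-inactivation transcript Xist and carried the Y-linked Kdm5d, and array 2 was the reverse. The replicates were therefore not repeats of 1 pool, and the replicate number goes with the sex of the cells in all 3 groups. The 10 CD8 T cell markers read log2 5 or more on every array. Their mean level was 12.4 on both RIP-OVAhi arrays and 12.3 and 12.2 on the OCS/LPS arrays. None of 13 pancreas markers reached log2 5 on any array. The difference between 3' and 5' control probe sets of Gapdh, which grows with RNA loss and amplification, was larger for the RIP-OVAhi arrays (2.08 and 2.03) than for OCS/LPS (1.85 and 1.89). Its part in the results was not tested.

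Some transcripts of other cells moved with the groups. Of 9 MHC class II genes, 3 lay at log2 5 or more on each RIP-OVAhi array and 7 on each OCS/LPS array. The class II chain gene H2-Aa read 1.77 and 2.74 in RIP-OVAhi and 6.50 and 6.99 in OCS/LPS, a difference of -4.49 (SE 0.34, adjusted p = 0.00315). H2-Ab1 (-2.38) and H2-Eb1 (-1.79) were called lower with it, and H2-Oa, from the same list, was called higher (1.19). H2-DMa (1.12, adjusted p = 0.067) and H2-Ob (0.85, adjusted p = 0.120) were positive too but not called. Of the 7 tested class II genes 4 were thus negative and 3 positive. The lysozyme gene Lyz1, a myeloid transcript, differed by -4.67, the immunoglobulin joining chain gene Jchain by -6.26 and the light chain segment Igkv8-30 by -4.62. Igha read 3.40 on both RIP-OVAhi arrays and 4.89 and 7.52 in OCS/LPS, and was not called (-2.80, adjusted p = 0.187). Other markers of the same cells were mixed. Of the B cell genes, Cd79a stayed between 2.15 and 2.18 on the 4 compared arrays and Cd79b between 7.89 and 8.43, whereas Ms4a1 read 3.74 and 3.98 in RIP-OVAhi and 4.92 and 6.67 in OCS/LPS (-1.94, adjusted p = 0.194). The 13 B cell genes averaged 3.69 and 3.81 in RIP-OVAhi and 3.92 and 4.12 in OCS/LPS. Of the macrophage genes, Csf1r stayed between 2.44 and 2.5, whereas Lyz2 read 4.11 and 2.43 against 5.46 and 6.05 (-2.49, adjusted p = 0.103). H2-Oa, H2-DMa, H2-Ob, Cd79a, Cd79b, Csf1r and Ncr1 were chosen after their values were seen. The B cell gene Cd22 read 6.53 and 7.03 against 8.21 and 8.55 (-1.60) and was called lower although its naive arrays lay near 3.8, and the macrophage list held a gene called higher, Ctss (0.73). Markers of CD4 and regulatory T cells, erythroid cells and lymph node stroma were at log2 5 or more in equal numbers on all 4 arrays. Dendritic cell markers reached it in 2 of 11 on the RIP-OVAhi and 3 of 11 on the OCS/LPS arrays, and neutrophil markers on 1 OCS/LPS array in 1 of 11. The mean level of the MHC class II list was 5.12 and 5.29 in RIP-OVAhi and 5.79 and 6.13 in OCS/LPS. The 9 plasma cell and immunoglobulin genes averaged 3.32 and 3.47 in RIP-OVAhi and 4.53 and 5.09 in OCS/LPS. The 21 macrophage and monocyte genes averaged 3.37 and 3.31 against 3.71 and 3.77, and the 8 NK cell genes 4.76 and 4.91 against 5.99 and 6.26. The NK cell list includes Gzma, described below. The naive spleen arrays also read above RIP-OVAhi for H2-Aa (6.50 and 6.69), Lyz1 (7.94 and 8.67) and Jchain (7.07 and 6.94), and for Jchain they lay below OCS/LPS (8.01 and 8.45). The part of tissue and of carried-over host cells in these differences was not tested. In sorted bulk cells, fewer cells that carry a transcript and less of it per cell cannot be told apart.

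Of 8203 genes, 132 were called higher in RIP-OVAhi (1.61%) and 107 lower (1.3%), 239 in all (2.91%), by limma's moderated test with a Benjamini-Hochberg adjusted p under 0.05 over all genes tested. At least a 2-fold difference was reached by 173 called genes (2.11%), 94 higher and 79 lower. Differences are log2 RIP-OVAhi minus log2 OCS/LPS, and SE is the moderated standard error. The smallest called difference was 0.63 in size, and the genes next to the threshold had adjusted p of 0.0496 and 0.0502. The arrays of the groups did not overlap for 4721 genes (57.6%), which include all 239 called ones. At an unadjusted p under 0.05 there were 1357 genes. The median difference over all genes was -0.05, and 41.9% of genes were positive, so small negative values are the background against which lists are read below. The shares called, 1.61% higher and 1.3% lower, are likewise the background of every list count.

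**Figure D1:**
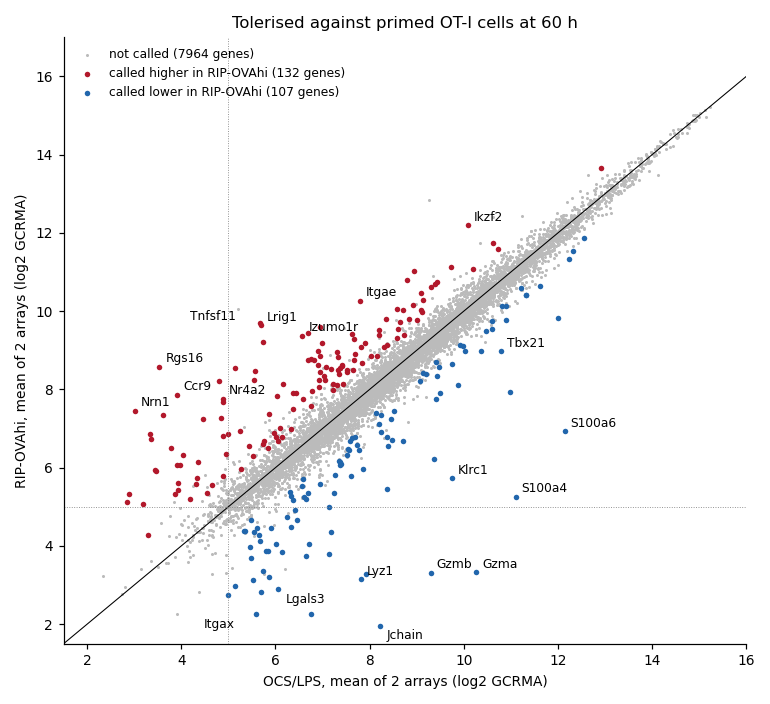
Mean log2 level of each of 8203 genes in OCS/LPS (x axis) and RIP-OVAhi (y axis), n = 2 arrays each, with the line of equal levels and dotted lines at log2 5. Red points are the 132 genes called higher in RIP-OVAhi and blue points the 107 called lower; Gzma, Gzmb, S100a4 and S100a6 lie far below the line, and Rgs16, Nrn1 and Tnfsf11 far above it.

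Few calls were secured by all 4 arrays. Without RIP-OVAhi array 1 or 2, 32 and 42 genes were called, and without OCS/LPS array 1 or 2, 41 and 35. In each such fit the lone array is assumed to vary like the other groups. The same 22 genes kept their call in all 4 fits. The 10 higher ones were Rgs16, Nrn1, Lrig1, Cxxc5, Nr4a2, Izumo1r, Nt5e, Cd86, Cyth3 and 4921525O09Rik. The 12 lower ones were Gzma, Jchain, S100a4, S100a6, Itgax, Lgals3, Emp1, Il18rap, Fgl2, Osbpl3, Tspan2 and 1500009L16Rik. Cyth3, 4921525O09Rik, Fgl2, Osbpl3 and Tspan2 are named here for that result, after their values were seen. Itgax, Lgals3 and Emp1 lay near background in RIP-OVAhi and naive cells, where replicates hardly differ. Their SE of 0.12 was under the median of 0.16 over all genes, and its bearing on their kept calls was not tested. None of the 239 called genes changed sign in any of the 4 fits, an outcome fixed in advance because their arrays do not overlap between the groups. All other calls named below lost significance without at least 1 of the 4 arrays, and 179 of the 239 lost it whichever of the 4 was left out.

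The levels of naive cells place the called genes. Both comparisons with naive cells use the same naive arrays, and 18.1% and 11.6% of all tested genes were called higher and lower in RIP-OVAhi, compared with 20.5% and 12.3% in OCS/LPS. Of the 132 genes higher in RIP-OVAhi, 77 were also called higher in RIP-OVAhi than in naive cells and 22 lower. For OCS/LPS against naive, 23 of these 132 were higher and 67 lower. The naive mean lay below both groups for 43 of them, between the groups for 52 and above both for 37. Of the 107 genes lower in RIP-OVAhi, 35 were above naive and 41 below naive in RIP-OVAhi, against 73 above and 12 below in OCS/LPS. Among these 107 the naive mean lay below both groups for 52, between them for 34 and above both for 21. On the side of the lower level, 34 of the 132 and 37 of the 107 genes had a mean under log2 5, near background, where the size of a difference depends on the background estimate.

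**Figure D2:**
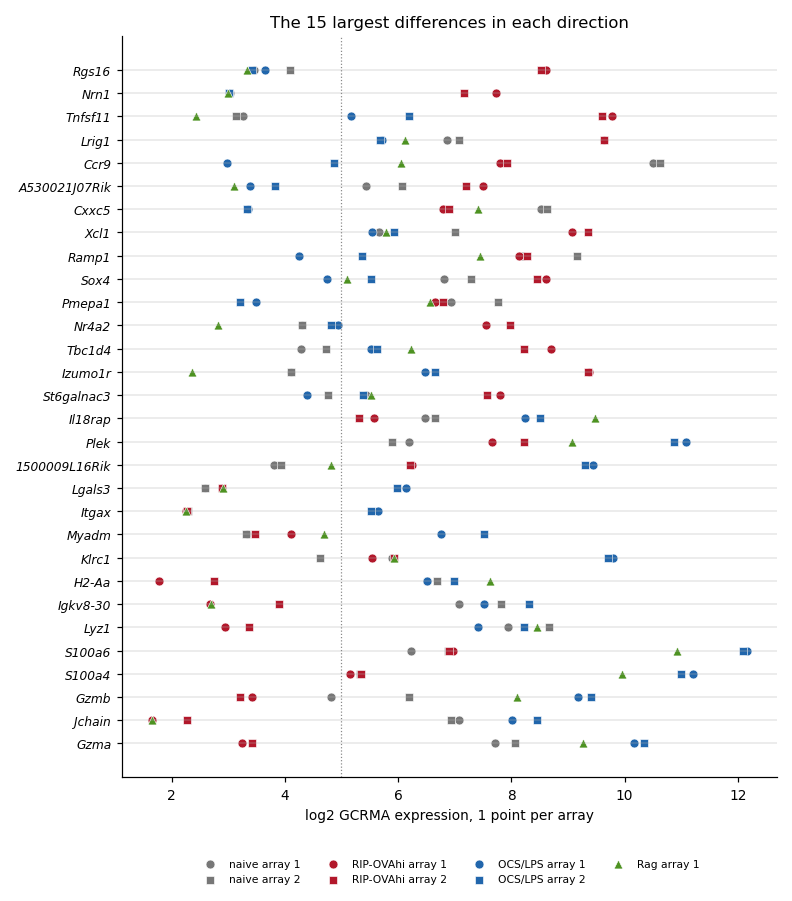
log2 level on each of the 7 arrays for the 15 called genes with the largest positive and the 15 with the largest negative difference, 1 point per array, with a dotted line at log2 5. RIP-OVAhi and OCS/LPS arrays do not overlap for any of them; Ccr9, Cxxc5, Ramp1 and Pmepa1 have naive levels at or above those of RIP-OVAhi, whereas Rgs16, Nrn1 and Izumo1r are near background in naive cells.

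Gzma and Gzmb, which encode proteases of the cytotoxic granule, were far lower in the tolerised cells. Gzma read 3.25 and 3.41 in RIP-OVAhi, against 10.17 and 10.35 in OCS/LPS and 7.70 and 8.07 in naive cells. The RIP-OVAhi arrays were thus the low ones, under the naive arrays, and the OCS/LPS arrays the high ones. The difference of -6.92 (SE 0.17, adjusted p = 6.45e-05) was the largest among all called genes in size. Gzmb, the granzyme that activates caspases in target cells, read 3.41 and 3.21 in RIP-OVAhi and 9.18 and 9.41 in OCS/LPS, a difference of -5.99 (SE 0.43, adjusted p = 0.00265). Its naive arrays read 4.81 and 6.20, between the groups. Serpinb9, an inhibitor of granzyme B that shields the killer cell, was called lower by 1.10 (adjusted p = 0.0108). These were 3 of 13 tested granule genes called lower, beside 1.3% of all genes, with 0 higher and a list median of -0.35. The other granule genes gave no call. Prf1, the pore-forming perforin, read 7.2 and 6.94 in RIP-OVAhi and 6.45 and 6.75 in OCS/LPS (0.47, adjusted p = 0.368), and both groups lay under the naive arrays (8.41 and 7.90). The granule membrane gene Nkg7 read 12.0 and 12.3 against 12.6 and 12.4. Of the 3 called granule genes, Gzma was the call that remained without each of the 4 arrays. The 8 NK cell markers were on average higher in OCS/LPS, as given above, but Gzma is itself one of them. It had the largest difference of that list, so the average is not independent of it. Of the 5 tested markers 4 were negative and 1 positive, Eomes, which was called higher (0.89). The part of NK cells in the result was not tested. In that list the NK cell receptor gene Klra8 read 3.23 and 3.38 against 4.04 and 5.85 (-1.64, adjusted p = 0.268). Ncr1 lay between 2.26 and 2.27 on the 4 compared arrays, and at 2.26 also on the Rag array, where Klra8 read 6.42.

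Receptors shared with NK cells followed. Klrc1, which encodes the inhibitory receptor NKG2A, read 5.53 and 5.92 in RIP-OVAhi and 9.79 and 9.71 in OCS/LPS. The OCS/LPS arrays stood apart from every other array, since naive cells read 5.90 and 4.62, and the difference was -4.02 (SE 0.40, adjusted p = 0.00986). Klrk1, the activating receptor NKG2D, read 3.96 and 4.12 against 7.02 and 6.41 (-2.67, SE 0.22, adjusted p = 0.00413). Of 5 tested NK receptor genes 2 were lower, beside 1.3% of all genes, and 0 higher, with a median of -1.18. Both calls were lost without either RIP-OVAhi array, and 1 remained without either OCS/LPS array. Klrd1, the partner chain of NKG2A, read 12.4 and 12.5 against 12.96 and 12.8 and was not called (-0.41, adjusted p = 0.205). Tyrobp, a signalling adaptor also found in myeloid cells, read 3.77 and 3.78 against 4.68 and 5.23.

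Among S100 proteins, annexins, galectins and related genes of cell migration, 4 were lower and kept their call throughout. S100a4, a marker of effector and memory T cells, read 5.16 and 5.34 in RIP-OVAhi, compared with 11.21 and 10.99 in OCS/LPS and 5.32 and 5.33 in naive cells. The tolerised cells thus lay at the naive level, and the difference was -5.85 (SE 0.14, adjusted p = 6.45e-05). S100a6 read 6.96 and 6.90 against 12.17 and 12.10, with naive arrays at 6.24 and 6.89 (-5.20, SE 0.22, adjusted p = 0.000359). Lgals3, a galectin, read 2.88 and 2.89 in RIP-OVAhi and 6.14 and 5.98 in OCS/LPS (-3.17), and the membrane protein gene Emp1 read 2.82 on both arrays against 5.62 and 5.78 (-2.88). Both genes were near background in RIP-OVAhi and naive cells, where replicates hardly differ and the spread is easily underestimated. The 4 genes called lower were among 23 tested members of the list, beside 1.3% lower among all genes, with 0 higher and a median of -0.27. All 4 calls remained without each of the 4 arrays. Anxa2, an annexin, was raised over naive in both groups and read 11.18 and 11.15 against 12.26 and 11.73 (-0.83, adjusted p = 0.159).

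Among cytokine receptors 3 were lower and 1 higher, beside 1.3% and 1.61% of all genes. Il18rap, the accessory chain of the interleukin-18 receptor, read 5.57 and 5.31 in RIP-OVAhi and 8.24 and 8.51 in OCS/LPS. Naive cells lay between at 6.47 and 6.65, and the difference was -2.93 (SE 0.16, adjusted p = 0.00106). Il12rb1, a chain of the interleukin-12 receptor, read 4.17 and 4.07 against 5.59 and 5.75 (-1.55, SE 0.12, adjusted p = 0.0039). Il7r, the receptor for a survival cytokine, fell from 12.94 and 12.78 in naive cells to 9.69 and 9.30 in RIP-OVAhi and to 10.52 and 10.44 in OCS/LPS. The RIP-OVAhi arrays were the lowest, and the groups differed by -0.98 (SE 0.17, adjusted p = 0.0426). Tgfbr3, a co-receptor for TGF-beta, was the call in the other direction, with 8.83 and 8.87 against 6.59 and 7.32 (1.90, adjusted p = 0.0191). In all 1 of 19 tested receptor genes was higher and 3 lower, with a median of -0.08, and Il18rap alone kept its call without each of the 4 arrays. Il2ra did not reach the level needed for a test. Socs3, a feedback inhibitor of cytokine signalling, read 5.56 and 6.92 against 7.80 and 7.82 and was not called (-1.57, adjusted p = 0.143). None of 15 feedback and STAT genes was called.

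Transcription factors of the effector fate differed in both directions. Tbx21, which encodes T-bet, read 8.91 and 9.04 in RIP-OVAhi, against 10.81 and 10.76 in OCS/LPS and 7.19 and 7.02 in naive cells. Both divided groups were thus above naive, with OCS/LPS highest, and they differed by -1.81 (SE 0.13, adjusted p = 0.00264). Eomes, the related T-box factor, was the reverse, with 10.97 and 11.20 in RIP-OVAhi against 10.30 and 10.09 in OCS/LPS (0.89, SE 0.14, adjusted p = 0.0361), the latter level with naive cells at 10.30 and 10.25. Bcl6, a repressor linked to less differentiated cells, was higher by 1.51 (SE 0.21, adjusted p = 0.0236) and Irf8 by 1.32 (SE 0.20, adjusted p = 0.0314). Id2, a regulator that sustains effector cells, read 10.43 and 10.37 against 11.24 and 11.41 (-0.93, adjusted p = 0.0275). Both groups lay under naive cells, which read 11.93 and 12.15 for Id2. Myb read 11.88 and 11.58 against 10.39 and 10.28 and was not called (1.39, adjusted p = 0.0644). Of 14 tested factors 3 were higher and 2 lower, beside 1.61% and 1.3% of all genes, with a median of 0.09. Without RIP-OVAhi array 2 a call remained for 1 of these 5, and without each of the other 3 arrays for none.

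Genes of the Egr, Nr4a and NFAT list, which are tied to antigen receptor signalling, were higher in the tolerised cells where they passed the test. Nr4a2, an orphan nuclear receptor, read 7.55 and 7.98 in RIP-OVAhi, compared with 4.94 and 4.82 in OCS/LPS and 4.31 and 4.30 in naive cells. The RIP-OVAhi arrays stood apart from all others, with a difference of 2.89 (SE 0.17, adjusted p = 0.00122). Its relatives Nr4a3 (9.62 and 9.23 against 7.68 and 7.56) and Nr4a1 (9.54 and 9.03 against 7.68 on both arrays) were higher by 1.80 (SE 0.21, adjusted p = 0.0143) and 1.61 (SE 0.19, adjusted p = 0.0149). Egr2 read 10.66 and 10.28 against 9.08 and 9.09, and naive cells 9.15 on both arrays, so that the RIP-OVAhi arrays lay above all the others (1.39, SE 0.16, adjusted p = 0.0129). Egr3 read 11.14 and 10.44 against 8.72 and 8.88 (1.99, SE 0.24, adjusted p = 0.0156), with naive arrays at 10.21 and 10.15, nearer to RIP-OVAhi. The Egr co-repressor gene Nab2 was higher by 1.31 (SE 0.15, adjusted p = 0.0144). Egr1 read 9.47 and 9.49 against 9.20 and 9.12 and was not called (0.32, adjusted p = 0.255), nor was Nfat5 (0.998, adjusted p = 0.108). In all 6 of 13 tested Egr, Nr4a and NFAT genes were higher and 0 lower, beside 1.61% higher among all genes, and the list median was 0.998. Without RIP-OVAhi array 1 or 2 the list kept 1 and 3 calls, and without either OCS/LPS array 1; Nr4a2 was kept each time.

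Sequences upstream of some of these genes hold letters that Egr proteins are known to bind, GCGNGGGCG on either strand. The bases just before the transcription start are shown for 4 genes called higher, from RefSeq on GRCm38.p6, 5' to 3' on the gene's strand, with the match in capitals. The first 2 genes are themselves receptor-induced factors, Cd200 is an inhibitory ligand and Bcl2l11 the death gene described below. Only genes with a match were printed. No match was found for Nr4a3, Egr2, Egr3 or Nab2, some of which may lack a promoter among those searched. The windows are chr15:101266746-101266845 (+), chr2:57124004-57124103 (-), chr16:45409054-45409153 (-) and chr2:128125938-128126037 (+).
Nr4a1: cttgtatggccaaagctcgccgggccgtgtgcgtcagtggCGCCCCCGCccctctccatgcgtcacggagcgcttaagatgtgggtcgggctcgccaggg
Nr4a2: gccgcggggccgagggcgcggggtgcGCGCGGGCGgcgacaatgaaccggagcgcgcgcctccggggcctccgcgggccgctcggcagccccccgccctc
Cd200: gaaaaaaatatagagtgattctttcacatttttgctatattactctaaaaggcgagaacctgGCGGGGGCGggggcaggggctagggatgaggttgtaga
Bcl2l11: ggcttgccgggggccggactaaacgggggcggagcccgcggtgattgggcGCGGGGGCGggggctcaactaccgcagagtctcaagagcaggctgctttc
In the 250 bases before the start, this motif occurred in 20 of 100 genes called higher that had a promoter in the table (20.0%) and in 6 of 94 called lower (6.38%). The share was 10.4% among all tested genes with a promoter and 5.33% among all 27025 genes with a promoter of the same length. A gene with several promoters counts once, as matched if any of them matches. A match is a string of letters and not a measured binding site, and the motif is rich in G and C, as are many promoters.

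Genes tied to unresponsive or regulatory T cells were among those most raised in the tolerised cells. Rgs16, which shortens G protein signalling downstream of chemokine receptors, read 8.62 and 8.53 in RIP-OVAhi, against 3.64 and 3.43 in OCS/LPS and 3.46 and 4.09 in naive cells. It was near background everywhere but in RIP-OVAhi, where it was higher than in OCS/LPS by 5.04 (SE 0.22, adjusted p = 0.000371). Nrn1, which encodes neuritin, read 7.73 and 7.16 in RIP-OVAhi and between 3.01 and 3.03 on the other compared and the naive arrays (4.43, SE 0.20, adjusted p = 0.000371). Izumo1r, which encodes folate receptor 4, read 9.38 and 9.36 against 6.48 and 6.66, with naive cells at 4.10 and 4.11 (2.80, SE 0.12, adjusted p = 0.000359). Nt5e, the ectoenzyme CD73 that makes adenosine, read 6.6 and 6.39 in RIP-OVAhi and 3.98 and 3.56 in OCS/LPS. Naive cells lay between at 5.08 and 5.14, and the difference was 2.72 (SE 0.18, adjusted p = 0.00186). Cd83 (2.64), the Ikaros family gene Ikzf2 (2.09) and Tox (1.44), a factor of persistently stimulated T cells, were called higher too, although another Tox probe set differed by only 0.24. Nedd4, a ubiquitin ligase, went the other way at -1.07 (adjusted p = 0.0466). Of 24 tested genes 7 were higher and 1 lower, beside 1.61% and 1.3% of all genes, with a median of 0.30. The other members gave no call, and 9 of the 24 were negative. Like the other lists, this one was chosen with earlier results of these data known, so its counts are a description. Without RIP-OVAhi array 1 or 2 the list kept 4 calls and without either OCS/LPS array 5, and Rgs16, Nrn1, Izumo1r and Nt5e were kept each time.

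Other regulators of G protein signalling were raised with Rgs16. Rgs1 read 8.995 and 9.37 in RIP-OVAhi and 7.02 and 6.95 in OCS/LPS (2.20, SE 0.32, adjusted p = 0.0275), above naive in both groups. Rgs2 read 8.57 and 9.39 against 7.06 and 6.76 (2.07, SE 0.28, adjusted p = 0.0222), with RIP-OVAhi at the naive level of 8.58 and 8.66. With Rgs16, 3 of 7 tested RGS genes were higher, beside 1.61% of all genes, and 0 lower, and the median was 0.60. Without RIP-OVAhi array 1 or 2 the calls kept were 2 and 1, and without either OCS/LPS array 1, Rgs16 being kept each time.

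Inhibitory receptors and ligands at the cell surface differed in both directions. Cd200, whose receptor restrains myeloid cells, read 8.80 and 8.76 in RIP-OVAhi, compared with 6.58 and 6.93 in OCS/LPS and 3.80 and 4.49 in naive cells, and both groups were above naive (2.02, SE 0.25, adjusted p = 0.0173). Pdcd1, the inhibitory receptor PD-1, read 8.49 and 8.38 against 7.57 and 7.47, with naive cells at 4.08 and 4.40. The groups differed by 0.91 (SE 0.15, adjusted p = 0.0387), on top of a rise over naive in both. Lag3 read 6.55 and 5.96 against 5.09 and 4.87 and just missed the threshold (1.28, SE 0.24, adjusted p = 0.0561). Ctla4 read 10.33 and 9.94 in RIP-OVAhi and 10.22 and 9.95 in OCS/LPS, far above the naive arrays at 2.64 and 2.29. Its arrays overlapped between the groups, and the difference of 0.05 (SE 0.20, adjusted p = 0.945) turned negative without RIP-OVAhi array 1 (-0.14) or OCS/LPS array 2 (-0.09). Lair1, a collagen receptor, was lower in RIP-OVAhi, with 3.82 and 3.93 against 5.64 and 5.94 (-1.92, adjusted p = 0.00864). In all 2 of 11 inhibitory receptors were higher and 1 lower, with a median of 0.27, and no call in the list remained without any 1 of the 4 arrays.

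**Figure D3:**
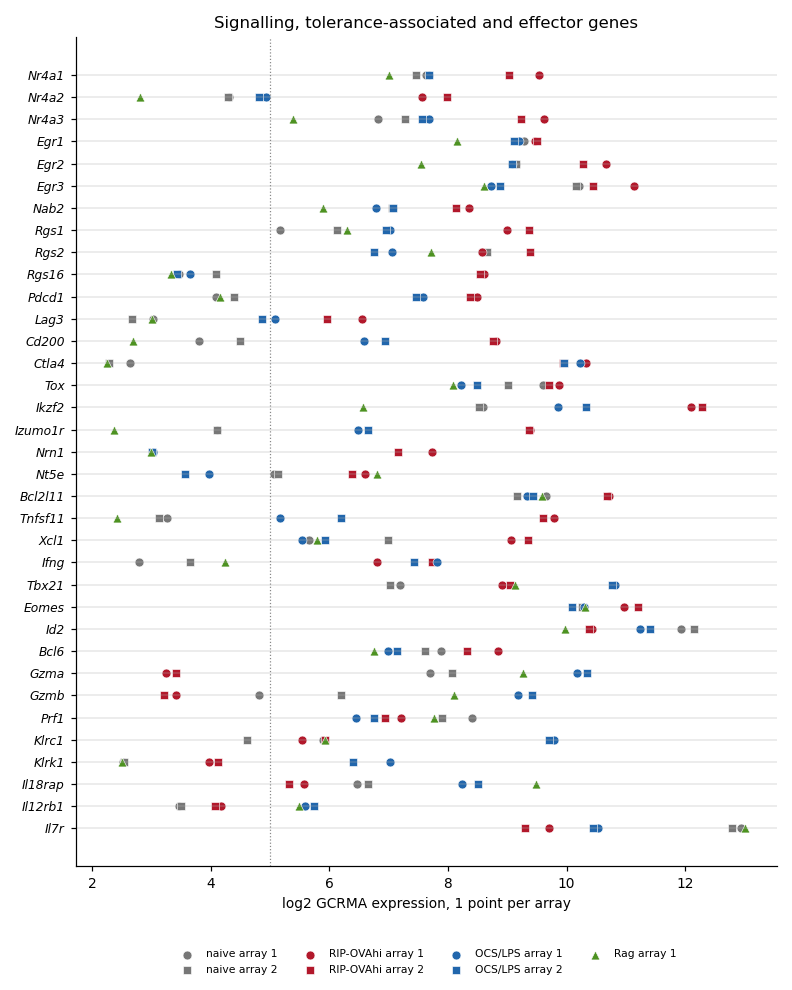
log2 level on each of the 7 arrays for 35 genes of receptor signalling, tolerance, survival and effector function, 1 point per array, with a dotted line at log2 5. Nr4a2, Rgs16, Nrn1 and Izumo1r are highest in RIP-OVAhi, Ctla4 overlaps between RIP-OVAhi and OCS/LPS, and Gzma, Gzmb, Klrc1 and Klrk1 are highest in OCS/LPS.

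Among costimulatory molecules, 2 of 15 were higher, beside 1.61% of all genes, and 0 lower, with a median of 0.20. Cd86, known mainly as a ligand on antigen-presenting cells, read 8.17 and 8.10 in RIP-OVAhi, against 6.17 and 6.16 in OCS/LPS and 4.05 and 3.93 in naive cells. It was above naive in both groups and higher in RIP-OVAhi by 1.97 (SE 0.12, adjusted p = 0.00134), a call kept without each of the 4 arrays. Tnfrsf9, the receptor 4-1BB, was higher by 1.48 (SE 0.24, adjusted p = 0.0354). The main costimulatory receptor gene Cd28 read 11.55 and 11.73 against 11.21 and 11.12 and was not called (0.48, adjusted p = 0.140).

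Secreted and membrane-bound ligands were unequal between the groups. Tnfsf11, the ligand of RANK, a receptor on dendritic cells and osteoclast precursors, read 9.78 and 9.60 in RIP-OVAhi, compared with 5.16 and 6.19 in OCS/LPS and 3.26 and 3.13 in naive cells. All 4 divided arrays lay above the naive ones, and the difference of 4.01 (SE 0.32, adjusted p = 0.00413) was lost as a call without RIP-OVAhi array 1 or 2. It was 1 of 4 tested ligands of the TNF family, of which 0 were lower. Xcl1, a chemokine that draws cross-presenting dendritic cells, read 9.07 and 9.36 against 5.54 and 5.92 (3.48, SE 0.43, adjusted p = 0.0167). Lta, which encodes lymphotoxin alpha, was higher by 1.54 (adjusted p = 0.0129). Ccl5, a chemokine stored by effector and memory cells, was lower, with 7.8 and 8.0 against 9.64 and 9.34 (-1.59, SE 0.19, adjusted p = 0.0149), and naive cells lay between. Ifng, the effector cytokine, rose over naive in both groups and read 6.80 and 7.73 in RIP-OVAhi and 7.81 and 7.43 in OCS/LPS. The groups overlapped, and the difference of -0.36 (SE 0.40, adjusted p = 0.744) was 0.10 without RIP-OVAhi array 1. Of 11 cytokine and chemokine genes 2 were higher and 1 lower, a list median of 0.19, and none of the 3 calls remained without any 1 of the 4 arrays.

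Homing receptors differed in both directions. Ccr9, the receptor for the gut and thymus chemokine CCL25, read 7.80 and 7.92 in RIP-OVAhi, against 2.98 and 4.86 in OCS/LPS and 10.51 and 10.62 in naive cells. Both divided groups were under naive, OCS/LPS the more so, with a difference of 3.94 (SE 0.56, adjusted p = 0.0259). Its other probe sets gave 1.68 and 0.03, so the size is uncertain. Itgae, the integrin CD103, which binds epithelial E-cadherin, read 10.13 and 10.39 against 7.46 and 8.12 (2.47, SE 0.29, adjusted p = 0.0143), with naive cells at 10.80 and 11.37. Itgax, the integrin CD11c that marks dendritic cells and some effector T cells, read 2.25 and 2.27 in RIP-OVAhi, compared with 5.64 and 5.52 in OCS/LPS and 2.28 and 2.29 in naive cells (-3.32, SE 0.12, adjusted p = 0.000222). Cxcr3, which guides effector cells to inflamed tissue, was above naive in both groups and lower in RIP-OVAhi by 0.92 on the log2 scale (adjusted p = 0.0354). Of 24 genes 2 were higher and 2 lower, beside 1.61% and 1.3% of all genes, with a median of 0.08. Itgax was kept without each of the 4 arrays, and without either OCS/LPS array 2 of the 4 calls remained. Ccr7, the lymph node homing receptor, read 11.12 and 10.82 against 11.11 and 11.08 (-0.13, adjusted p = 0.742), and this difference was 0.02 without RIP-OVAhi array 2. Gpr183, which positions cells within lymphoid tissue, read 8.10 and 7.53 against 9.41 and 8.97 (-1.37, adjusted p = 0.0507). The activation marker gene Cd44 was above naive in both groups and read 11.86 and 11.84 against 11.11 and 11.34 (0.63, adjusted p = 0.217).

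The lists of cell death and survival genes gave 1 call, Bcl2l11. Bcl2l11, which encodes the killer protein Bim, read 10.72 and 10.68 in RIP-OVAhi, against 9.33 and 9.43 in OCS/LPS and 9.66 and 9.17 in naive cells. The OCS/LPS arrays lay within the naive range and the RIP-OVAhi arrays above it, by 1.32 over OCS/LPS (SE 0.18, adjusted p = 0.0242). Its other 3 probe sets above the filter gave 1.14 to 1.33. It was 1 of 25 pro-apoptotic genes called higher, with 0 lower and a list median of -0.004, and the call was lost without any 1 of the 4 arrays. Bcl2, which Bim opposes, fell from 12.26 and 11.88 in naive cells to 10.50 and 10.15 in RIP-OVAhi and to 9.14 and 9.51 in OCS/LPS. The groups did not overlap, and the difference of 1.001 was not called (SE 0.22, adjusted p = 0.0861). Its other 4 probe sets above the filter gave smaller differences, 0.12 to 0.72, so the size is uncertain. None of 17 survival genes was called (median -0.12).

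Proximal antigen receptor genes gave no call within the list examined. None of its 26 tested genes of the receptor complex and its proximal signalling was called, and their differences ran from -0.51 to 0.43. Cd8a, the coreceptor chain that defines these cells, differed by 0.32 (adjusted p = 0.326) and Cd3e read 10.40 and 10.38 against 10.05 and 9.94 (0.39, adjusted p = 0.184). Of 24 AP-1 and immediate early genes 1 was higher and 1 lower, beside 1.61% and 1.3% of all genes, with a median of 0.08. Dusp4, a phosphatase that ends MAP kinase signals, was above naive in both groups and higher in RIP-OVAhi by 1.21 (SE 0.13, adjusted p = 0.0129). Fosl2, an AP-1 subunit, read 4.37 and 3.30 against 6.14 and 6.15 (-2.31, adjusted p = 0.0259). The list kept 1 call without either RIP-OVAhi array and 0 without either OCS/LPS array. Immediate early genes that respond within minutes had large errors: Jun read 9.05 and 10.10 against 7.60 and 7.32 (2.12, adjusted p = 0.105). Fos read 11.96 and 12.85 against 11.03 and 10.23 (1.78, adjusted p = 0.0819), and Dusp1 8.02 and 9.07 against 6.94 and 7.10 (1.53, adjusted p = 0.101). For the NF-kB genes none of 17 was called, while 16 of 17 were positive beside 41.9% of all genes, with a median of 0.34. Tnfaip3, a brake on NF-kB, read 9.36 and 9.77 against 8.93 and 8.76 (0.72, adjusted p = 0.131).

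Among interferon response genes 6 were higher in the tolerised than in the primed cells, and the 3 described by array lay below naive cells in both groups. Oasl2, an antiviral gene, read 7.27 and 7.25 in naive cells, 4.94 and 5.30 in RIP-OVAhi and 2.86 and 2.85 in OCS/LPS. The RIP-OVAhi arrays lay between the others, 2.26 above OCS/LPS (SE 0.15, adjusted p = 0.00216). Ifit1, which blocks translation of viral RNA, read 7.72 and 8.33 in naive cells, 6.86 on both RIP-OVAhi arrays and 5.22 and 4.76 in OCS/LPS (1.86, SE 0.25, adjusted p = 0.0211). Its neighbour in the family, Ifit3, read 9.99 and 9.45, then 8.78 and 8.85, then 7.17 and 7.49 (1.49, SE 0.21, adjusted p = 0.0267). Isg20 (1.34), the GTPase gene Gbp6 (1.31) and Usp18 (0.83), a feedback inhibitor of the interferon receptor, were called higher too. In all 6 of 41 tested genes were higher, beside 1.61% of all genes, and 0 lower. Positive differences were seen for 35 of 41 beside 41.9% of all genes, the arrays did not overlap for 35 of 41 beside 57.6%, and the median was 0.36. Rsad2 (1.72, adjusted p = 0.117) and Irf7 (0.90, adjusted p = 0.0592) were not called. Of the 6 calls 1 remained without RIP-OVAhi array 1, RIP-OVAhi array 2 or OCS/LPS array 1, and none without OCS/LPS array 2, although the list median then still lay between 0.31 and 0.43.

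The promoters of Ifit1 and Ifit3 each hold 2 copies of the interferon-stimulated response element, searched as a pair of GAAA repeats with 2 bases between them on either strand. They are shown because both genes followed the pattern of the list, from RefSeq on GRCm38.p6, with the matches in capitals. The windows of 160 bases before the start are chr19:34640729-34640888 (+) and chr19:34583369-34583528 (+).
Ifit1: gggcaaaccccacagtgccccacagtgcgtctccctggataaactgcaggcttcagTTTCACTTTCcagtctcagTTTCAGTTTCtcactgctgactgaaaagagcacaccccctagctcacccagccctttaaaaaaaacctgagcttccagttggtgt
Ifit3: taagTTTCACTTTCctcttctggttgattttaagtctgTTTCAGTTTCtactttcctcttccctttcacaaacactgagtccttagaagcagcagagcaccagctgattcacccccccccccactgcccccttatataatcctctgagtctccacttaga
The copies start 104 and 85 bases before the start of Ifit1 and 156 and 122 bases before that of Ifit3, and they read on the opposite strand. In 250 bases before the start the motif occurred in 8 of 100 genes called higher that had a promoter (8.0%) and in 5 of 94 called lower (5.32%), among them Gzma and Serpinb9. The share was 3.38% of tested genes and 3.46% of all 27025 genes with a promoter. Of the other motifs searched on both strands in these windows, the AP-1 site TGANTCA occurred in 5 of 100 higher and 8 of 94 lower genes (5.0% and 8.51%), beside 4.68% of tested genes and 7.82% of all. Its matches among the lower genes included Gzmb, Itgax and Emp1. The T-box site TCACACCT occurred in 1 of 100 and 4 of 94 (1.0% and 4.26%), beside 0.887% of tested genes and 1.3% of all. The cyclic AMP element TGACGTCA occurred in 1.0% and 3.19%, beside 3.34% of tested genes and 1.77% of all.

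At 3.39%, the called share of the mitosis list was near the 2.91% of all genes. Nearly every mitosis gene, however, read slightly lower in the tolerised cells. Both groups had switched these genes on: Aurkb, the kinase of chromosome segregation, read 9.37 on both RIP-OVAhi arrays and 10.08 and 10.65 in OCS/LPS, with naive cells at 3.81 and 4.30. The difference was -0.996 (SE 0.24, adjusted p = 0.121), small beside the rise over naive. Of 59 tested mitosis genes 58 were negative and the arrays did not overlap for 57, beside 57.6% of all genes, with a median of -0.66. Called lower were 2, Cdc25c (-1.23, adjusted p = 0.0462), a phosphatase that starts mitosis, and Cdkn3 (-1.09, adjusted p = 0.0149), and 0 were higher. Neither call remained without any 1 of the 4 arrays, while the list median stayed between -0.83 and -0.48 in the fits that left out 1 array. DNA replication genes showed the same sign with smaller values: 51 of 56 were negative, with a median of -0.23 and no call. Among all genes 41.9% were positive. Among G1 regulators 3 of 24 were higher, beside 1.61% of all genes, and 0 lower. They were Gadd45g (1.70), Ccnd2, which encodes cyclin D2 (1.12), and Gadd45b (0.64), the Gadd45 genes being stress-induced brakes on the cycle. None of these 3 calls remained without any 1 of the 4 arrays.

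**Figure D4:**
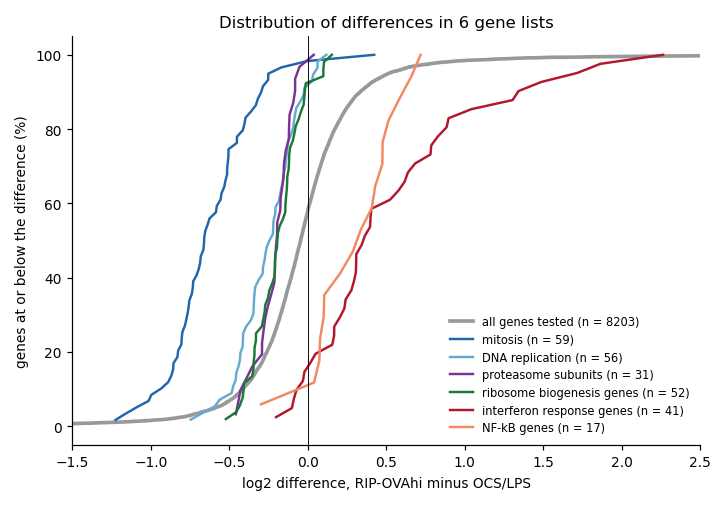
Cumulative share of genes (y axis, percent) at or below a given log2 difference, RIP-OVAhi minus OCS/LPS (x axis), for all 8203 genes (grey) and 6 gene lists. The mitosis curve (median -0.66) lies left of the curve of all genes (median -0.05), DNA replication, proteasome and ribosome biogenesis slightly left, and NF-kB (0.34) and interferon response genes (0.36) right.

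Of the growth and metabolic lists, glycolysis had 5.0% and amino acid genes 3.33% of members called, near the 2.91% of all genes. Of 52 ribosome biogenesis genes 48 were negative, of 31 proteasome subunits 30 and of 52 oxidative phosphorylation genes 41, with medians of -0.19, -0.20 and -0.10 and no call in any of the 3 lists. Among all genes 41.9% were positive, with a median of -0.05. Myc, a driver of cell growth, read 8.77 and 8.91 against 8.95 and 9.04 (-0.15, adjusted p = 0.759), under naive in both groups. In the glycolysis list 1 of 20 was higher, Pfkfb3 (0.92, adjusted p = 0.0425), which makes an activator of glycolysis, with 0 lower and a median of -0.17. Of 30 amino acid and ATF4 genes 1 was lower, the tRNA synthetase gene Gars (-0.63, adjusted p = 0.0473), and 25 were negative (median -0.20). The calls of Pfkfb3 and Gars were lost without any 1 of the 4 arrays.

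Cholesterol genes formed a further group. Cyp51, an enzyme of sterol synthesis, read 7.37 and 7.32 in RIP-OVAhi, 8.25 on both OCS/LPS arrays and 6.55 and 6.42 in naive cells (-0.90, SE 0.12, adjusted p = 0.0201). Insig1, a sensor that holds back the sterol response, was lower by 0.90 (adjusted p = 0.0354). Abca1, the pump that exports cholesterol, went the other way, with 6.12 and 5.70 against 3.49 and 3.44 (2.45, SE 0.18, adjusted p = 0.00306). Naive cells read 7.96 and 8.23, so Abca1 was under naive in both groups, and OCS/LPS was lowest. In all 2 of 25 genes were lower and 1 higher, beside 1.3% and 1.61% of all genes. Of the 25, 20 were negative and the median was -0.36. Without either RIP-OVAhi array 1 call remained and without either OCS/LPS array none. Sqle, an early enzyme of the pathway, read 6.53 and 6.31 against 7.37 and 7.57 (-1.04, adjusted p = 0.156).

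The naive and quiescence list had 3.45% of its genes called, near the 2.91% of all genes, and the stress lists had none. Klf3, a factor of resting lymphocytes, was the single call of 29 naive and quiescence genes, with 10.55 and 10.71 against 11.56 and 11.66 (-0.98, adjusted p = 0.0275), and the call was lost without any 1 of the 4 arrays. The list median of -0.02 changed sign under 5 other settings, so it gives no direction. No call was made among 31 endoplasmic reticulum folding genes or 20 heat shock genes. The inducible and near-identical chaperone genes Hspa1a (9.18 and 10.94 against 7.18 and 3.23) and Hspa1b (12.38 and 13.28 against 10.67 and 7.84) were higher on both RIP-OVAhi arrays. Replicates lay far apart, and neither gene passed (4.86, SE 1.26, adjusted p = 0.138, and 3.57, SE 1.03, adjusted p = 0.169).

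**Figure D5:**
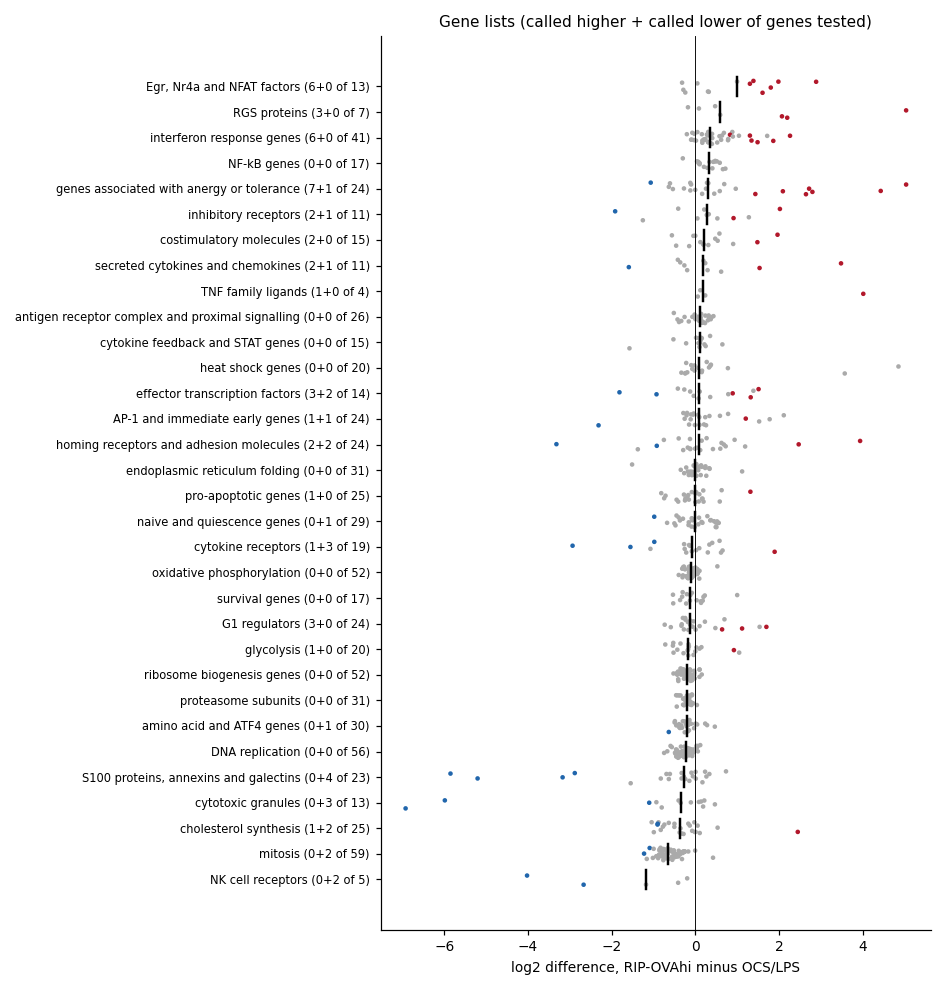
log2 difference, RIP-OVAhi minus OCS/LPS, of every tested member of 32 gene lists, 1 point per gene, with red and blue points for genes called higher and lower and a bar at the list median. Counts in the labels are called higher plus called lower of genes tested; the Egr, Nr4a and NFAT list has the highest median (0.998) and the NK cell receptor list the lowest (-1.18).

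Several of the largest differences fell outside these lists. Lrig1, a feedback inhibitor of growth factor receptors, read 9.64 and 9.63 in RIP-OVAhi, compared with 5.71 and 5.68 in OCS/LPS and 6.86 and 7.08 in naive cells (3.94, SE 0.13, adjusted p = 0.000222). Cxxc5 read 6.80 and 6.91 against 3.35 and 3.33, with naive cells at 8.53 and 8.63, so that both groups were under naive and OCS/LPS near background (3.51, SE 0.12, adjusted p = 0.000222). Sox4, a transcription factor of lymphocyte development, read 8.62 and 8.46 against 4.75 and 5.52 (3.40, SE 0.29, adjusted p = 0.00489), with naive cells between. Tbc1d4, a regulator of glucose transporter traffic, was higher by 2.89 (adjusted p = 0.00338), St6galnac3 by 2.80 and A530021J07Rik by 3.73. In the other direction Plek, a substrate of protein kinase C, read 7.66 and 8.22 against 11.09 and 10.87 (-3.04, SE 0.22, adjusted p = 0.00292), above naive in both groups. Myadm differed by -3.34 and 1500009L16Rik by -3.15, the latter with naive levels of 3.82 and 3.92. Lrig1, Cxxc5 and 1500009L16Rik kept their calls without each of the 4 arrays.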

How the data were processed

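Expression was measured on Affymetrix mouse arrays from 100 ng total RNA with 2 rounds of amplification, per the labels' protocols. For 45101 probe sets the deposited values are log2 expression, with a column for each of 7 arrays. The submitters' processing notes name GCRMA (version not given in the sources used here). This method models background from probe sequence and sets all arrays to 1 distribution, which hides any shift common to most genes. Arrays have no read depth, and their number limits the precision.

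From these values, probe sets with 1 gene symbol were kept (34958; 932 had several and 9211 none), with symbols matched to RefSeq for 34754. For each of 18194 genes the probe set of highest mean level was used. The 8203 genes with log2 of at least 5 on at least 2 arrays were fitted on all 7 arrays with a mean per group (limma 3.58.1, R 4.3.3, lmFit and eBayes, two-sided, 3 residual degrees of freedom, prior degrees of freedom 2.93, prior SD 0.156). The single Rag array adds no degree of freedom. The procedure was tested on simulated data. Replicate numbers go with the sex of the cells in every group with 2 arrays, and over all tested genes replicate differences correlated at 0.325 for RIP-OVAhi and OCS/LPS, 0.348 for naive and RIP-OVAhi and 0.132 for naive and OCS/LPS. Outside X and Y the values were -0.024, 0.197 and -0.059, and no label ties the numbers to a shared batch, so the arrays were not treated as paired.

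Named genes were the 15 largest called differences per direction, up to 8 genes per programme list, up to 4 per cell type list, and a set of T cell genes given whatever their value, of which 1 is not reported here. All other genes named, uncalled list members included, were chosen after their values were seen. The 32 programme and 12 cell type lists and the members were chosen with earlier results of these data known, so list counts and medians are descriptions. Promoters came from RefSeq's GRCm38.p6 table, and 10 motifs were searched.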

Additional observations from a re-analysis of the deposited data

Results flagged for a closer look

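For 20 called genes the groups moved away from naive cells in opposite directions, with each departure called on its own and the RIP-OVAhi minus OCS/LPS difference called as well. Both departures are measured from the same 2 naive arrays. Of these genes 12 were above naive in RIP-OVAhi and below it in OCS/LPS. Their differences were 3.94 for Lrig1, 3.73 for A530021J07Rik, 3.4 for Sox4, 2.74 for Cyth3, 2.72 for Nt5e and 2.43 for Basp1. Smaller ones were 2.09 for Ephx1, 1.51 for Prmt2, 1.32 for Skil, 1.28 for Inpp4b, 1.21 for Ski and 0.937 for Nrip1. The other 8 were below naive in RIP-OVAhi and above it in OCS/LPS: Gzma at -6.92, Jchain at -6.26, Gzmb at -5.99, Il18rap at -2.93, Lair1 at -1.92, Baiap3 at -1.75, Ccl5 at -1.59 and Rnf157 at -1.44. Jchain is the immunoglobulin gene given above among transcripts of other cells, and the part of carried-over cells in its values was not tested. Cyth3, a regulator of vesicle traffic, read 9.53 and 9.35 in the RIP-OVAhi arrays, 6.50 and 6.89 in OCS/LPS and 7.82 and 7.94 in naive cells. Ephx1, an enzyme that detoxifies epoxides, read 11.14 and 10.90, then 8.98 and 8.89, then 9.93 and 10.19 in the same order. Ski and Skil are related repressors of TGF-beta signalling. Genes of this set other than Gzma, Jchain, Gzmb, Il18rap, Lair1, Ccl5, Nt5e, Lrig1, Sox4 and A530021J07Rik were chosen after their values were seen.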

How the results depend on the processing

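No called gene changed direction under any of 19 alternatives, but the number called varied. Direction could differ only with centring, repeated quantile normalization or the probe set of largest variance. The other alternatives keep the group difference or leave out 1 compared array, and the arrays of called genes do not overlap between the groups. With only the 4 arrays of both groups, 416 genes were called (223 higher, 193 lower), and without a filter on dim probe sets 105 (50 and 55). Leaving out 1 array gave 32 to 416 calls, 16 to 223 higher and 16 to 193 lower; the top values come from leaving out a naive array, which removes the naive pair from the spread. Calls were 231 with the replicate number as a replicate block (121 and 110; 200 of the 239 kept). Among genes named in the text, Cxcr3, Insig1, Gbp6, H2-Oa, Eomes, Pdcd1, Usp18, Smurf2, Pfkfb3, Ctss, Gars and Gadd45b lost their calls under that block, with adjusted p from 0.0517 to 0.0911. The number of calls was 265 with each array centred, 257 with quantile normalization repeated, 276 with all probe sets and 195 with the probe set of largest variance. Trend and robust fits gave 242 and 232, and filters at log2 4 and 6 gave 230 and 214. Without the Rag array all 239 were kept. Ctla4, Ifng and Ccr7, none of them called, changed sign: Ctla4 to -0.142 without RIP-OVAhi replicate 1 and -0.085 without OCS/LPS replicate 2 (leave-one-out range -0.142 to 0.242), Ifng to 0.104 without RIP-OVAhi replicate 1 (-0.825 to 0.104) and Ccr7 to 0.019 without RIP-OVAhi replicate 2 (-0.273 to 0.019). Medians of the cytokine, naive, pro-apoptotic and folding lists changed sign under at least 1 alternative. Without OCS/LPS replicate 1, 41.5% of calls were higher, against 55.2%. No scanner files were analysed here, so background correction and slide were not varied.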

Other observations

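Genes around TGF-beta signalling, listed after the values of several had been seen, were often higher in the tolerised cells. TGF-beta is a cytokine known to restrain T cells and to induce Itgae. Of 22 tested genes 8 were called higher and 1 lower, 19 were positive and the median was 0.50, beside -0.05 for all genes. Among all genes 1.61% were called higher, 1.3% lower, and 41.9% were positive. Pmepa1, a feedback inhibitor induced by the pathway, read 6.66 and 6.79 in RIP-OVAhi, against 3.48 and 3.21 in OCS/LPS and 6.93 and 7.76 in naive cells (3.37, SE 0.28, adjusted p = 0.00444). RIP-OVAhi thus lay at or just under the naive level and OCS/LPS near background. The feedback inhibitor Ldlrad4 (1.67), the receptors Tgfbr3 (1.90) and Bmpr2 (1.46), the repressors Skil (1.32) and Ski (1.21), the co-receptor Rgmb (1.0) and the ubiquitin ligase Smurf2 (0.77) were the other higher ones. Rgmb lay near background in both groups, with 4.13 and 4.45 in RIP-OVAhi and 3.27 and 3.31 in OCS/LPS. It passed the filter only through the naive arrays (6.47 and 6.45) and the Rag array (6.67). Smad3, the signal transducer itself, was lower, with 7.59 and 7.91 against 9.35 and 9.46 and naive cells at 8.14 and 8.04 (-1.65, SE 0.15, adjusted p = 0.00673). Without RIP-OVAhi array 1 or OCS/LPS array 1 none of the 9 calls remained, and without RIP-OVAhi array 2 or OCS/LPS array 2 a call remained for 1. As the list was drawn up from these data, its count is a description.

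Genes of cyclic AMP signalling were also listed after values were seen. Of these, 4 of 16 were higher and 0 lower, all 16 were positive, and the median was 0.32. Among all genes 1.61% were called higher and 41.9% were positive. As this list too was drawn up from these data, its counts are a description. Ramp1, a subunit of the receptor for the neuropeptide CGRP, read 8.13 and 8.28 in RIP-OVAhi, compared with 4.25 and 5.36 in OCS/LPS and 8.21 and 9.16 in naive cells (3.40, SE 0.44, adjusted p = 0.0199). The prostaglandin E2 receptor gene Ptger2 rose over naive in both groups and was higher in RIP-OVAhi by 0.98 (adjusted p = 0.0404). Crem, a factor that answers cyclic AMP, read 6.76 and 6.61 against 5.76 on both OCS/LPS arrays (0.92, adjusted p = 0.0199), and Gpr174 was higher by 0.84 (adjusted p = 0.0483). None of the 4 calls remained without any 1 of the 4 compared arrays.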
